A study of Mus musculus with 123 samples.

Results

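The genes described here are 10 maternal-effect and oocyte genes of the mouse, followed as mRNA from the morula to the late inner cell mass (ICM) in embryos with and without Oct4 or Sox2. They are Ooep, Khdc3, Tle6, Nlrp5, Padi6, Nlrp4f, Zbed3, Nlrp14, Zar1 and Npm2, taken by gene name as 10 of the 29022 rows of a table of unique molecular identifier (UMI) counts. A UMI is a molecular tag that counts each captured mRNA 3′ end once. The table holds single mouse embryos (strain label B6C3F1) in 16 groups. In the Ctrl groups (48 embryos) the mother was flox/flox for Oct4 or Sox2 and carried Zp3-Cre, which deletes the floxed allele in the growing oocyte, and the embryo inherited an intact paternal allele and no reporter. Ctrl embryos therefore lacked the maternal supply of Oct4 or Sox2. In the KO groups (48 embryos, from the same matings) the paternal allele was also a KO allele, labelled with mKO2 for Oct4 and with EGFP for Sox2, so the embryos were maternal-zygotic KO and were sorted by reporter fluorescence. MWT embryos (27) kept the maternal gene. Females were superovulated with PMSG and hCG. Morulae were taken whole at E2.75. For the early and late ICM, embryos collected at E2.5 were cultured in KSOM with 1 µM PD0325901, a MEK inhibitor that keeps primitive endoderm from forming, and the ICM was freed of trophectoderm by immunosurgery. The source labels give E3.75 for the early and E4.5 for the late ICM of every Ctrl and KO group, and E3.75 for the Sox2 MWT early ICMs. Between morula and ICM, stage, culture and isolation change together in this design, and their parts in a difference cannot be told apart. Early and late ICMs of the Ctrl and KO groups were cultured and isolated alike, but stage and time in culture change together between them. In bulk libraries of this kind, fewer cells that carry an mRNA and less of that mRNA in each cell cannot be told apart either. Each Ctrl and KO group had 8 embryos. The Oct4 MWT groups had 7 morulae, 5 early ICMs and 8 late ICMs, and the Sox2 MWT group had 7 early ICMs. For the Oct4 MWT early and late ICM embryos the sample title and the source label name different stages, and the title was followed. The labels of the Oct4 MWT early ICM embryos read E2.75 morula and list no PD0325901 treatment, so whether the inhibitor was given to this group is not settled by the labels. Those of the Oct4 MWT late ICM embryos read E3.75 early ICM.

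Oocytes of the mouse store mRNAs and proteins that carry the embryo through its first cleavages, and most of this store is degraded around zygotic genome activation. Ooep (an atypical KH-domain protein, also called Floped), Khdc3 (Filia, another KH-domain protein), Tle6 (a Groucho-family protein), Nlrp5 (Mater, an NLR-family protein) and the enzyme-like protein Padi6 form the subcortical maternal complex, which lies under the oocyte membrane and is needed for cleavage-stage development. Zbed3 and Nlrp4f are proteins found associated with that complex. Nlrp14 is another maternal-effect NLR-family protein, Zar1 binds maternal mRNAs in the oocyte, and Npm2 is a nucleoplasmin that acts on oocyte and zygotic chromatin. The complex is known as a protein assembly that outlasts its mRNAs, and only mRNA was measured here.

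Ooep (chr9:78376109-78378725, minus strand) and Khdc3 (chr9:73101836-73104438, plus strand) lie on the same chromosome in mm10, the build of the count table. The other members are Tle6 (chr10:81590904-81601073, minus), Nlrp5 (chr7:23385889-23441922, plus), Nlrp14 (chr7:107166990-107198102, plus), Padi6 (chr4:140727355-140742643, minus), Zbed3 (chr13:95323612-95337841, plus), Nlrp4f (chr13:65177111-65205977, minus), Zar1 (chr5:72576806-72581254, minus) and Npm2 (chr14:70647302-70659244, minus). Khdc3 overlaps the protein-coding gene Gm20509 on the same strand, which has no row in the count table. Npm2 overlaps Xpo7 on the same strand, and Xpo7 held 6718 UMIs over all embryos against 196 for Npm2, so the Npm2 values are uncertain. Snora47 and Gm22661, which lie within Zbed3, held 1 and 0 UMIs.

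Promoter windows of 300 bases (250 before and 50 after the annotated start, RefSeq, GRCm38.p6, given 5′ to 3′ on the gene's strand) are shown for Ooep and Khdc3, whose mRNAs rose after the morula, and for Padi6 and Nlrp5, whose mRNAs fell. Capitals mark matches on either strand to the octamer ATGCAAAT, which Oct4 can bind, to the SOX-like CATTGT, to the NOBOX-like TAATTG and to the E-box CANNTG, the site type of the oocyte factor FIGLA. The windows are chr9:78378539-78378838 (minus) for Ooep, chr9:73102148-73102447 (plus) for Khdc3, chr4:140742594-140742893 (minus) for Padi6 and chr7:23385639-23385938 (plus) for the more upstream of 2 Nlrp5 starts.
Ooep: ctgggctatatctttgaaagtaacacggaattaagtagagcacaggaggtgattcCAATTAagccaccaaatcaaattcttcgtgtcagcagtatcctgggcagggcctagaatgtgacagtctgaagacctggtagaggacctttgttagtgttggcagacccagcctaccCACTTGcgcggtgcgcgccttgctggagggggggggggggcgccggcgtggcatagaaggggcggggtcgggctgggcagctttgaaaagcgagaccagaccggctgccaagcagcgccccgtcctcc
Khdc3: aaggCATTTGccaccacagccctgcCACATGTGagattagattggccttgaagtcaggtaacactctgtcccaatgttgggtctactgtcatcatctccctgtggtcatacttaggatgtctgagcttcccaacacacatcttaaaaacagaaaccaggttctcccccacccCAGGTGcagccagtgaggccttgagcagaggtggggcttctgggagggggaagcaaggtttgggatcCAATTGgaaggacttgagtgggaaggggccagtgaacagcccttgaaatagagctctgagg
Padi6: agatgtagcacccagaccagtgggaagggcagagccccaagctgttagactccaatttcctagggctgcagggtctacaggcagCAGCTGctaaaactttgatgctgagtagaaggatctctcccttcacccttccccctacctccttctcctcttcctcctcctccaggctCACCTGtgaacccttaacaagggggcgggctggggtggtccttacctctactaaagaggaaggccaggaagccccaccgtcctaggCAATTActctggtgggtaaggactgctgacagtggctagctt
Nlrp5: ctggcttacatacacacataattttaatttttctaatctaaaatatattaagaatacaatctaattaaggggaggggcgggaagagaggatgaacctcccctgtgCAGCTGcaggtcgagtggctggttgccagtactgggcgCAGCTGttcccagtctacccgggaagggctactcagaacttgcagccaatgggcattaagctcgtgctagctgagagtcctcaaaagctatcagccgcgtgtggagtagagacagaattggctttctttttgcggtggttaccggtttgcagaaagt
Over the 12 windows found for 8 of the 10 members, the octamer had 0 matches, and 1.74% of all 32851 promoter windows held it. CATTGT had 2 matches, both in the downstream start of Nlrp5, and 12.6% of all windows held it. TAATTG had 1 match in Ooep and 1 in Padi6 (8% of all windows). CANNTG had 5 matches in Khdc3, which include overlapping ones in CACATGTG, against 1 in Ooep, 2 in Padi6 and 2 in the Nlrp5 window shown, and 72.3% of all windows held at least 1. Nlrp14 and Npm2 had no window in the table used. A match is a description of the letters and not a bound site.

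Total UMIs per embryo ran from 525755 to 1344035, with group medians highest in the Sox2 morulae and lowest in the Oct4 MWT late ICMs. Pou5f1, the gene of Oct4, lay at 0 to 4.68 CPM (UMIs per 1000000 of the TMM-scaled total) in the Oct4 KO groups and at 13.5 to 91.2 CPM in the Oct4 Ctrl groups. Sox2 lay at 0 to 3.37 CPM in Sox2 KO morulae against 3.06 to 32.1 in their Ctrl, at 7.81 to 38.3 against 71.2 to 189 CPM in early ICMs, and at 8.31 to 32.8 against 93.6 to 278 CPM in late ICMs. No pair of embryos had identical counts. Ooep, Khdc3 and Tle6 had at least 1 UMI in 100% of embryos at each stage. Nlrp5, Padi6 and Nlrp14 were also found in 100% of morulae, but Nlrp5 was found in 25% and Nlrp14 in 20% of late ICMs. Zar1 held 61 UMIs over all embryos and Npm2 held 196, so for these genes, and for Nlrp5 and Nlrp14 in ICMs, a difference is often not detectable at this depth. All 10 members passed the detection filter. Cumulus cells, which surround the oocyte, were checked as another source of such transcripts. Of their markers 6 were in the table and 0 passed the filter. Their summed level stayed at or below 4.59 CPM in every group except the Sox2 KO ICMs, where it ran up to 15.6 CPM in early and 10.998 CPM in late ICMs through Inha, while Foxl2 and Ptx3 were at 0 in those groups.

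The members parted in direction between the morula and the early ICM. Nlrp5, Padi6 and Nlrp14 fell in all 5 series compared (Oct4 Ctrl, Oct4 KO, Sox2 Ctrl, Sox2 KO and Oct4 MWT), and Ooep rose in all 5, by edgeR. In limma on the deposited rlog values some of these calls fell under the fold limit, for Nlrp5 in Oct4 KO (−0.91), Sox2 Ctrl (−0.98) and Sox2 KO (−0.59), for Nlrp14 in Oct4 KO (−0.97) and for Ooep in Sox2 KO (0.94). Members were called at an adjusted p (edgeR quasi-likelihood test, Benjamini-Hochberg over all genes tested) below 0.05 with a log2 fold change of at least 1. In Oct4 Ctrl embryos 4 of the 10 fell and 2 rose, where 14.9% of all genes tested fell and 14.1% rose. In Sox2 Ctrl embryos 4 fell and 4 rose, against 14.7% and 17.2% of all genes. In Oct4 KO embryos 4 fell and 1 rose, against 13.6% and 12.7%. In Sox2 KO embryos 4 fell and 3 rose, against 15.3% and 17.2%. In Oct4 MWT embryos 3 fell and 1 rose, against 12.3% and 15.3%.

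Nlrp14, the maternal-effect NLR-family gene, had the steepest fall among the members with UMIs in both groups. In Sox2 Ctrl morulae its level ran from 7.28 CPM through a median of 12.5 to 18.4, and in early ICMs from 0 through a median of 0 to 1.90. No early ICM reached the level of any morula, a lack of overlap seen for 18.4% of all genes in this comparison. The log2 fold change of Nlrp14 was −4.61 (SE 0.55, adjusted p = 1.3e-11), and in Oct4 Ctrl embryos it was −3.33 (SE 0.60, adjusted p = 2.03e-06, 0.439 against 5.55 CPM on average). The late ICMs of the Oct4 Ctrl group held 0 UMIs of Nlrp14.

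Nlrp5 encodes MATER, a core protein of the complex. Its level in Oct4 Ctrl morulae ran from 2.94 CPM through a median of 6.02 to 8.98, and in early ICMs from 0 through 0.544 to 1.21. The groups did not overlap, as for 16.3% of all genes in this comparison. The log2 fold change of Nlrp5 was −3.14 (SE 0.58, adjusted p = 4.25e-06), and −2.91 (SE 0.56, adjusted p = 6.76e-06) in Sox2 Ctrl embryos, where limma on rlog values gave −0.98, under the fold limit. In Sox2 KO late ICMs Nlrp5 held 0 UMIs against 8 in Sox2 KO early ICMs, with an exact 95% upper limit of 66.7% for the ratio of UMIs per total (counting error only, adjusted p = 0.0386), a call lost with no detection filter, with all embryos thinned to 1 depth and in limma on the deposited rlog values.

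Padi6, also of the complex, was still found in 70% of late ICMs. In Sox2 Ctrl morulae its level ran from 7.00 CPM through a median of 17.6 to 27.6, and in early ICMs from 0 through 1.68 to 9.09. The log2 fold change was −2.77 (SE 0.40, adjusted p = 4.04e-09), and −1.96 (SE 0.41, adjusted p = 3.56e-05) in Oct4 Ctrl embryos, where the groups did not overlap, as for 16.3% of all genes. Late ICMs held 1.45 CPM of Padi6 on average in the Sox2 Ctrl and 1.76 in the Oct4 Ctrl group, and no further fall from the early ICM was called.

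Npm2, the oocyte nucleoplasmin, fell in Sox2 Ctrl embryos from 4.33 to 0.763 CPM on average (log2 fold change −2.30, SE 0.60, adjusted p = 0.000727) and in Sox2 KO embryos (−1.66, SE 0.58, adjusted p = 0.0127). With thinned counts the latter value of Npm2 was −1.23 (adjusted p = 0.175), and in limma on rlog values the calls of Npm2 in Sox2 Ctrl (−0.76) and Sox2 KO (−0.53) were both under the fold limit. In Oct4 Ctrl embryos its log2 fold change of −1.03 did not pass (adjusted p = 0.142). Zar1 was called lower in the early ICM of Oct4 Ctrl and Oct4 KO embryos on very few UMIs. It held 7 UMIs in Oct4 Ctrl morulae and 0 in early ICMs (exact 95% upper limit of the ratio of UMIs per total 75.5%, adjusted p = 0.00813), and 6 against 0 in the Oct4 KO series (upper limit 94.7%, adjusted p = 0.0154). Both calls of Zar1 were lost in DESeq2 (adjusted p = 0.106 and 0.178) and in limma on rlog values (0.0524 and 0.0806). In Oct4 MWT embryos Zar1 had a log2 fold change of −0.39 (SE 0.81, adjusted p = 0.732, 0.746 against 1.06 CPM). In Sox2 Ctrl embryos Zar1 had a log2 fold change of −1.41 (adjusted p = 0.108).

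**Figure D1:**
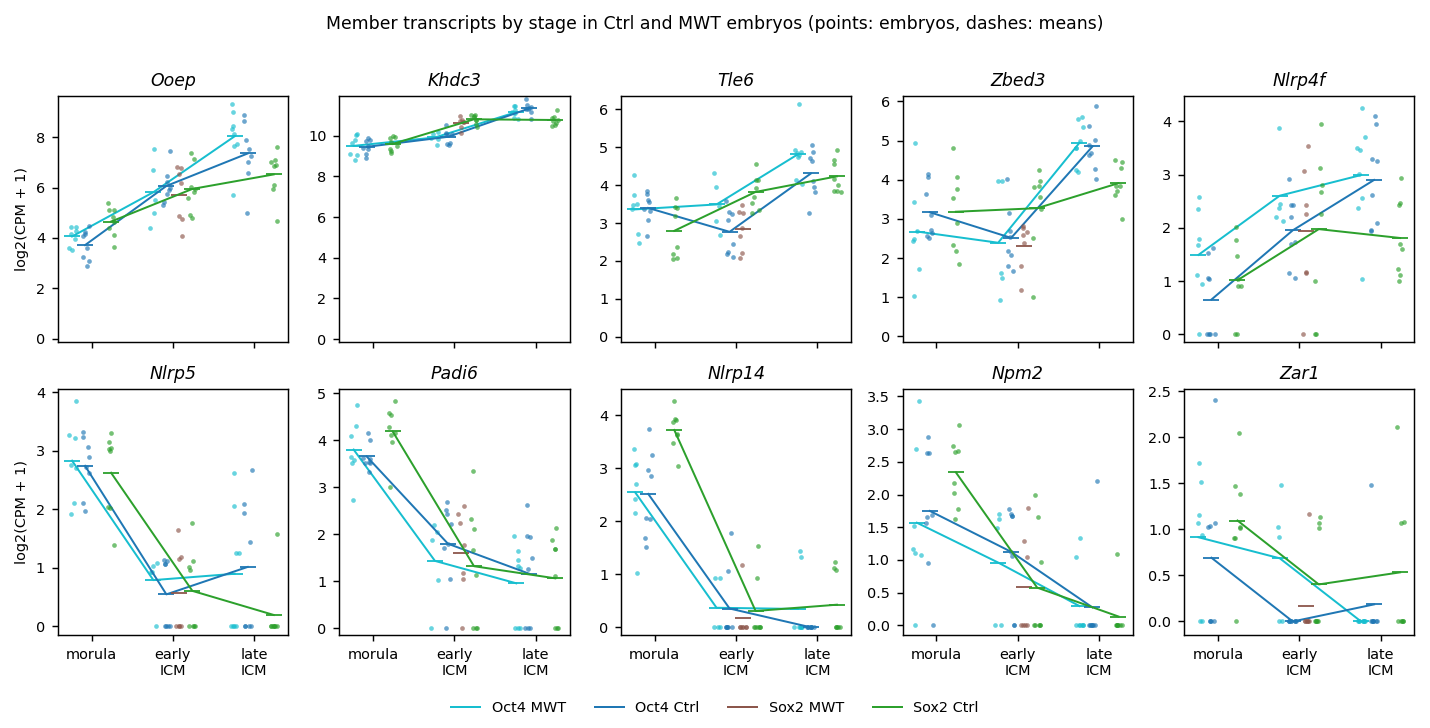
Levels of the 10 members in single embryos without KO, as log2(CPM + 1) on the y axis against stage on the x axis, 1 panel per gene. Points are embryos of the Oct4 MWT, Oct4 Ctrl, Sox2 MWT and Sox2 Ctrl groups and dashes are group means of the plotted values. Nlrp5, Padi6, Nlrp14 and Npm2 lie lower in ICMs than in morulae, while Ooep and Khdc3 lie higher.

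The rise of Ooep began in the early ICM. In Oct4 Ctrl morulae Ooep ran from 6.43 CPM through a median of 13.5 to 21.015, in early ICMs from 38.3 through 61.0 to 173, and in late ICMs from 30.8 through 169 to 473. No early ICM overlapped the morulae, as for 16.3% of all genes, whereas late and early ICMs overlapped. The log2 fold change was 2.46 (SE 0.39, adjusted p = 8.52e-08) from morula to early ICM and 1.55 (SE 0.32, adjusted p = 6.03e-05) from early to late ICM. Oct4 MWT embryos had 2.20 (SE 0.47, adjusted p = 5.62e-05) and 2.09 (SE 0.42, adjusted p = 4.74e-05) for the same steps of Ooep, with 319 CPM on average in late ICMs. Embryo 3 was the highest of the 5 Oct4 MWT early ICMs at 182 CPM, and without it the steps of Ooep were 1.57 (adjusted p = 0.00799) and 2.69 (adjusted p = 3.3e-06). In the Sox2 Ctrl series the first step was 1.48 (SE 0.35, adjusted p = 0.000216). In Sox2 KO embryos it was 1.03 (SE 0.36, adjusted p = 0.0137).

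Khdc3 was counted most deeply of all members, with 139071 UMIs in all. In Oct4 Ctrl embryos it ran from 472 through a median of 687 to 935 CPM in morulae, from 749 through 1046 to 1449 in early ICMs and from 1804 through 2600 to 3495 in late ICMs. The late ICMs lay above every early ICM, and 6.38% of all genes did not overlap at this step. The step from early to late ICM was a log2 fold change of 1.39 (SE 0.16, adjusted p = 1.04e-11), and the step before it, 0.47 (SE 0.16, adjusted p = 0.00989), stayed under the fold limit. In Sox2 Ctrl embryos the order of the steps differed. Khdc3 rose between morula and early ICM by 1.18 on the log2 scale (SE 0.16, adjusted p = 7.21e-10, 785 to 1794 CPM), and late ICMs held 1757 CPM.

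Zbed3, a zinc-finger protein, and Tle6 rose between early and late ICM in Oct4 Ctrl and Oct4 MWT embryos. In Oct4 Ctrl embryos Zbed3 ran from 2.18 through a median of 4.17 to 15.3 CPM in early ICMs and from 15.3 through 26.7 to 57.9 in late ICMs, a log2 fold change of 2.40 (SE 0.39, adjusted p = 3.56e-07). In Oct4 MWT embryos Zbed3 changed by 2.24 (SE 0.47, adjusted p = 0.000106) without overlap (7.79% of all genes did not overlap). Tle6 rose by 1.66 (SE 0.33, adjusted p = 2.99e-05) in Oct4 Ctrl embryos, from 6.33 to 20.4 CPM on average, and by 1.43 (SE 0.35) in Oct4 MWT embryos. In Sox2 Ctrl embryos Tle6 rose at the earlier step by 1.00 (SE 0.32, adjusted p = 0.00579), a call lost with thinned counts (0.66, adjusted p = 0.199) and in limma on rlog values (0.74, under the fold limit). In Sox2 KO embryos that step of Tle6 was 1.09 (SE 0.34, adjusted p = 0.00485), and 0.78 in limma. Nlrp4f rose from morula to early ICM in Oct4 Ctrl (1.87, SE 0.70, adjusted p = 0.0222, 0.757 to 3.23 CPM) and Sox2 Ctrl embryos (1.80, SE 0.61, adjusted p = 0.00974, 1.26 to 4.78 CPM), and both calls were lost in limma on rlog values (0.58 and 0.65, under the fold limit). In Sox2 KO embryos Nlrp4f rose by 1.47 (SE 0.64, adjusted p = 0.0466), a call lost with no detection filter (adjusted p = 0.0765), with thinned counts (0.0868), with the embryo number as a replicate block (0.0509) and in limma on rlog values (0.54, under the fold limit).

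From early to late ICM, 4 members rose in Oct4 Ctrl embryos (Ooep, Khdc3, Tle6 and Zbed3) and 0 fell, where 9.52% of all genes rose and 6.04% fell. The same 4 names rose in Oct4 MWT embryos and 0 fell, against 7.28% and 5.93% of all genes. In edgeR 1 member fell at an unadjusted p under 0.05 in the latter and 0 in the former. In Oct4 KO embryos 0 rose and 0 fell, against 9.76% and 6.2% of all genes, with 3 higher and 0 lower at an unadjusted p under 0.05 and 1 higher (Ooep) by DESeq2. Ooep had a log2 fold change of 0.998 (SE 0.32, adjusted p = 0.00957) there and Khdc3 of 0.81 (SE 0.16, adjusted p = 2.45e-05), both under the fold limit. In Sox2 Ctrl embryos 0 rose and 0 fell, against 1.94% and 0.961% of all genes, with 0 at an unadjusted p under 0.05 and 0 by DESeq2. In Sox2 KO embryos 1 fell (Nlrp5) and 0 rose, against 0.391% and 0.676% of all genes.

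MWT and Ctrl embryos were compared to see whether the maternal allele of Oct4 or Sox2 bore on the members. For Oct4, 0 members were called in morulae (0.0646% of all genes), 0 in early ICMs (0.373%) and 0 in late ICMs (0.797%). At an unadjusted p under 0.05, edgeR gave 0 in morulae, 2 higher in MWT early ICMs and 1 higher in MWT late ICMs, and DESeq2 called 0 in each. For Sox2 early ICMs 1 member was called, against 2.58% of all genes. Tle6 ran from 3.19 CPM through a median of 6.33 to 10.2 in MWT and from 8.63 through 13.1 to 22.7 in Ctrl early ICMs, and the ranges overlapped. Its log2 fold change, MWT over Ctrl, was −1.07 (SE 0.35, adjusted p = 0.0481). With the embryo number as a replicate block the adjusted p was 0.0512.

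In Oct4 KO embryos the calls of members lay in ICMs, mostly late ones. In morulae 0 members were called, against 0.804% of all genes (edgeR unadjusted p under 0.05 for 1 lower, Khdc3, and 1 higher, Padi6, and 0 by DESeq2). In early ICMs 1 was called, lower, against 10.9%, a share at that of all genes, and in late ICMs 4 were called, all lower, against 18.1%. The median log2 fold change over the 10 members was 0.03 in early and −1.06 in late ICMs, and over all genes 0.01 and −0.01.

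Nlrp4f, the NLR-family gene associated with the complex, differed most in Oct4 KO. In late ICMs it ran from 2.81 CPM through a median of 6.81 to 16.2 in Ctrl, while 7 of 8 KO embryos held 0 UMIs and the eighth held 1.53 CPM. The groups did not overlap, as for 5.64% of all genes. The group held 1 UMI against 41 in Ctrl, a ratio of UMIs per total of 2.29% (exact 95% interval 0.0566% to 13.5%, counting error only), and the fitted log2 fold change was −4.62 (SE 0.86, adjusted p = 7.78e-06). In early ICMs 5 UMIs in KO stood against 23 in Ctrl, a ratio of 22.3% (6.62% to 59.9%) and a log2 fold change of −1.97 (SE 0.73, adjusted p = 0.0417). The early call was lost on leaving out any 1 of 4 Ctrl or 5 KO embryos (Ctrl 1, 3, 4 and 8, KO 1, 2, 5, 17 and 18), with adjusted p-values of up to 0.0979, and the late call was kept in each of the 16 such fits.

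Khdc3 ran from 539 through a median of 1216 to 1916 CPM in Oct4 KO late ICMs and from 1804 through 2600 to 3495 in Ctrl. Each of the 8 KO embryos was below the median of Ctrl, and the ranges overlapped only at their ends. The log2 fold change of Khdc3 was −1.18 (SE 0.16, adjusted p = 2.3e-09). In early ICMs Khdc3 had a mean of 661 CPM in KO and 1002 in Ctrl, a log2 fold change of −0.60 (SE 0.16, adjusted p = 0.00328) under the fold limit, with 8 of 8 KO embryos below the Ctrl median. In morulae it was −0.41 (SE 0.16, adjusted p = 0.212).

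Zbed3 ran from 0 through a median of 10.7 to 18.5 CPM in Oct4 KO late ICMs and from 15.3 through 26.7 to 57.9 in Ctrl. The log2 fold change was −1.62 (SE 0.37, adjusted p = 0.000287). The rise of Zbed3 between early and late ICM seen in Oct4 Ctrl was not called in Oct4 KO (0.36, adjusted p = 0.534), and the difference between those 2 steps was itself past the threshold (−2.04, SE 0.57, adjusted p = 0.021). Nlrp5 held 1 UMI in KO and 8 in Ctrl late ICMs, in 1 and 4 embryos, a ratio of 11.7% (0.264% to 87.5%) and a fitted log2 fold change of −2.38 (SE 0.89, adjusted p = 0.0357). This call was lost on leaving out 3 of the Ctrl or 7 of the KO embryos in turn. Over all 16 such fits, those that kept it included, the adjusted p ran from 0.0055 to 0.139. Tle6 averaged 10.4 CPM in KO and 20.4 in Ctrl late ICMs, a log2 fold change of −0.95 (SE 0.32, adjusted p = 0.0161) just under the fold limit.

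Padi6 and Ooep gave no call in Oct4 KO. Padi6 lay higher in KO at each stage without passing. In morulae it ran from 14.98 through 19.1 to 25.9 CPM in KO and from 8.98 through 10.8 to 16.7 in Ctrl, with 8 of 8 KO embryos above the Ctrl median and a log2 fold change of 0.75 (SE 0.33, adjusted p = 0.301). In early ICMs the log2 fold change of Padi6 was 1.12 (SE 0.44, adjusted p = 0.0573, 6.71 against 2.99 CPM) and in late ICMs 1.32 (SE 0.56, adjusted p = 0.0615, 4.39 against 1.76 CPM). DESeq2 called Padi6 in early ICMs. On leaving out 1 embryo, Padi6 passed in early ICMs without any 1 of 3 Ctrl (1, 4 and 6) or 3 KO embryos (1, 10 and 18), with log2 fold changes of up to 1.31 (adjusted p = 0.0356). In late ICMs it passed without any 1 of 1 Ctrl (2-4) or 2 KO embryos (1-2 and 2-2), with up to 1.69 (adjusted p = 0.0246). Ooep averaged 184 CPM in KO and 213 in Ctrl late ICMs (−0.20, SE 0.31, adjusted p = 0.679).

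**Figure D2:**
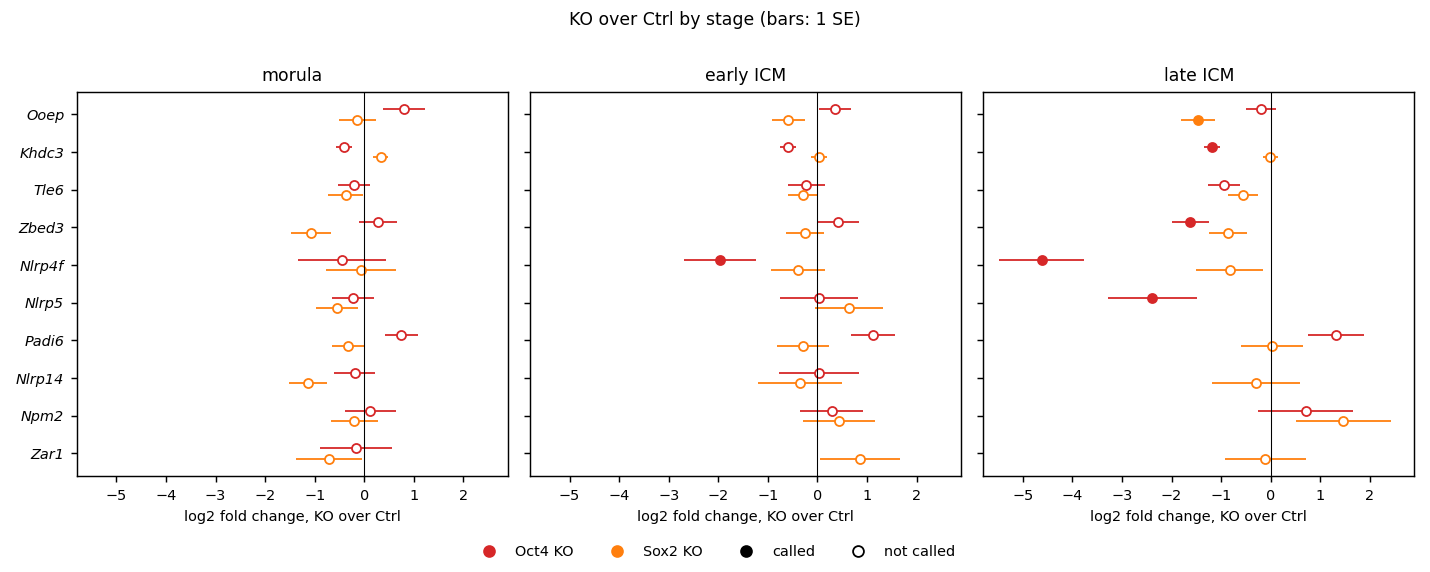
Log2 fold change of KO over Ctrl (x axis) for each member (y axis) in morulae, early ICMs and late ICMs, with bars of 1 SE from edgeR for Oct4 and Sox2. Filled points were called, and members with 0 UMIs in a group are left out of that panel. In late ICMs Nlrp4f, Nlrp5, Zbed3 and Khdc3 are filled for Oct4 and Ooep for Sox2.

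In Sox2 KO embryos 1 member was called, in late ICMs. In morulae 0 were called, against 0.00712% of all genes (1 gene). At an unadjusted p under 0.05 edgeR gave 2 lower and 1 higher, and DESeq2 called 0. The 2 lower ones were Nlrp14, at 5.65 against 12.6 CPM on average with 8 of 8 KO embryos below the Ctrl median (log2 fold change −1.14, SE 0.38, adjusted p = 1), and Zbed3 (−1.07, SE 0.41, adjusted p = 1). In early ICMs 0 were called, against 3.27% of all genes, with 0 at an unadjusted p under 0.05 and 0 by DESeq2. In late ICMs 1 was called, against 6.95%. The median log2 fold change over the members in late ICMs was −0.42, and 0.00 over all genes.

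Ooep was the member called. It ran from 16.1 CPM through a median of 34.3 to 69.8 in Sox2 KO late ICMs and from 24.1 through 116 to 197 in Ctrl. Each of the 8 KO embryos was below the median of Ctrl, although the ranges overlapped. The ratio of UMIs per total was 36.5% (31.5% to 42.3%, counting error only) and the log2 fold change −1.46 (SE 0.34, adjusted p = 0.00122). The call was kept on leaving out each of the 16 embryos in turn (−1.65 to −1.27). In early ICMs the log2 fold change of Ooep was −0.59 (SE 0.34, adjusted p = 0.332). Khdc3 averaged 1749 CPM in KO and 1757 in Ctrl late ICMs (−0.00, SE 0.16, adjusted p = 0.999). Zbed3 (−0.86, SE 0.39, adjusted p = 0.133) and Tle6 (−0.56, SE 0.30, adjusted p = 0.232) did not pass.

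**Figure D3:**
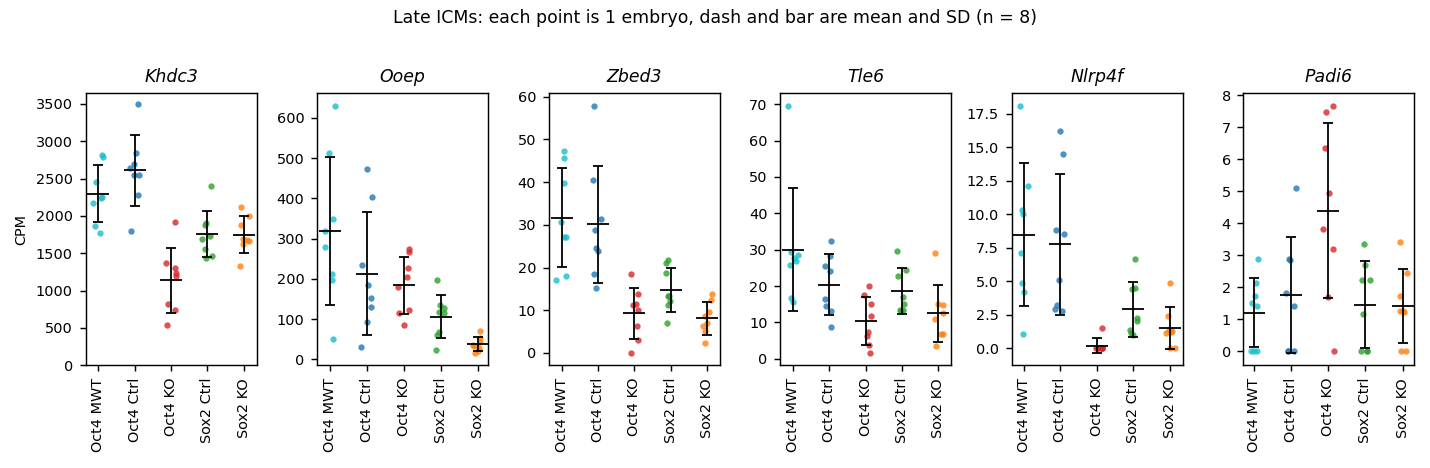
Levels in CPM (y axis) of Khdc3, Ooep, Zbed3, Tle6, Nlrp4f and Padi6 in single late ICMs of the Oct4 MWT, Oct4 Ctrl, Oct4 KO, Sox2 Ctrl and Sox2 KO groups (x axis). Points are embryos and bars are the mean and SD. Nlrp4f lies at 0 in 7 of 8 Oct4 KO embryos, and Ooep in Sox2 KO stays at or below 69.8 CPM.

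Late ICM labels of the Ctrl and KO groups carry a leading 1 or 2 whose meaning the sources used here do not give. Those of the Oct4 MWT late ICMs carry no such number. Within set 1 Khdc3 averaged 1222 CPM in 4 Oct4 KO and 2775 in 5 Ctrl embryos, and within set 2 it averaged 1055 in 4 and 2334 in 3. Zbed3 was at 7.68 against 33.1 CPM in set 1 and at 10.9 against 25.2 in set 2. Nlrp4f was at 0.384 against 6.39 CPM in set 1 and at 0 against 10.0 in set 2. Ooep in Sox2 late ICMs was at 37.3 against 144 CPM in set 1 (4 and 4 embryos) and at 38.3 against 67.1 in set 2 (4 and 4). Each difference had the same direction in both sets, and the gap for Ooep was wider in set 1.

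Interaction terms tested whether KO effects differed between stages or between Oct4 and Sox2, with an adjusted p below 0.05 as the only threshold. Between early and late ICM, 1 member passed for Oct4 against 4.46% of all genes. It was Zbed3, whose KO effect was lower in late than in early ICMs. For the step from morula to early ICM 0 members passed for Oct4 (4.84% of all genes) and 0 for Sox2 (1.15%), and 0 passed for Sox2 between early and late ICM (0.0427%). At an unadjusted p under 0.05 edgeR gave 0 in each of these. Between Oct4 and Sox2 the KO effects on 2 members differed in late ICMs, against 8.67% of all genes. The Oct4 effect was lower than the Sox2 effect by −1.18 for Khdc3 (SE 0.22, adjusted p = 9.45e-05) and by −3.79 for Nlrp4f (SE 1.18, adjusted p = 0.0283). For Ooep the Oct4 minus Sox2 difference was 1.26 (SE 0.46, adjusted p = 0.0702), so a difference between the KOs was not shown. In early ICMs 0 members passed, against 8.12% of all genes, with 3 at an unadjusted p under 0.05. Oct4 and Sox2 embryos came from separate matings, and each KO was compared with its own Ctrl. Sox2 mRNA had a median of 87.7 CPM (10.1 to 220) in Oct4 KO late ICMs and of 308 (136 to 483) in Oct4 Ctrl. In early ICMs the medians of Sox2 were 137 CPM in Oct4 KO and 127 in Oct4 Ctrl.

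Markers of cell types moved in the same comparisons. Between morula and early ICM 7 of 8 epiblast markers rose in Oct4 Ctrl embryos (summed 1147 to 1451 CPM in morulae, 2626 to 4036 in early ICMs) and 3 rose in Sox2 Ctrl embryos (1034 to 1851 and 1927 to 3958 CPM), with 0 that fell in either. Of 10 trophectoderm markers 1 rose and 2 fell in Oct4 Ctrl embryos (763 to 1372 and 500 to 1511 CPM), and 0 rose and 6 fell in Sox2 Ctrl embryos (887 to 1173 and 217 to 693 CPM). Of 7 primitive endoderm markers tested 4 rose and 1 fell in each. At this step in Oct4 KO embryos 1 epiblast marker rose and 2 fell, 2 trophectoderm markers rose and 1 fell, and 3 primitive endoderm markers rose and 0 fell. In Sox2 KO morulae and early ICMs the summed epiblast markers ran from 1227 to 1541 and 1813 to 2395 CPM, and the trophectoderm markers from 954 to 1430 and 680 to 2345. In Oct4 MWT embryos these were 1177 to 1723 and 2400 to 4700, and 868 to 1401 and 373 to 864 CPM. From early to late ICM of Oct4 Ctrl embryos 2 epiblast markers rose, 1 trophectoderm marker fell, and 4 primitive endoderm markers rose while 2 fell. At that step in Oct4 MWT embryos 2 epiblast markers rose and 0 fell, 1 trophectoderm marker rose and 1 fell, and 0 primitive endoderm markers rose and 3 fell (summed 477 to 626 CPM in early and 106 to 429 in late ICMs). In Sox2 MWT against Ctrl early ICMs, where Tle6 was called, 2 epiblast markers were lower and 1 trophectoderm and 1 primitive endoderm marker were higher. In the KO comparisons, of 10 trophectoderm markers, 8 rose and 0 fell in Oct4 KO late ICMs, with a summed level of 1658 to 3556 CPM in KO and 303 to 1078 in Ctrl, and 3 rose and 1 fell in Oct4 KO early ICMs. In Sox2 KO late ICMs 3 rose and 0 fell, with 746 to 1992 CPM in KO and 296 to 2938 in Ctrl. In Sox2 KO early ICMs, where 0 members were called, 5 rose and 1 fell, with 680 to 2345 CPM in KO and 217 to 693 in Ctrl. There 0 epiblast markers rose and 3 fell, and 1 primitive endoderm marker rose and 0 fell. Of 8 epiblast markers, 7 fell in Oct4 KO late ICMs (716 to 1347 CPM against 2870 to 4283 in Ctrl) and 6 in early ICMs, and 3 fell in Sox2 KO late ICMs (1746 to 3012 against 2994 to 4480 CPM). Of 7 primitive endoderm markers tested, 2 rose and 4 fell in Oct4 KO late ICMs and 0 rose and 1 fell in Sox2 KO late ICMs. The part of these shifts in the values of the members was not tested.

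The members varied unequally between embryos of a group. Ooep had a median coefficient of variation of 48.7% over the 16 groups, from 13.9% to 88.6%, where counting error alone would give a median of 13.1%. Khdc3 had a median of 18.5% (9.74% to 38.1%) where counting would give 3.16%. For Padi6, over the 5 groups with at least 10 UMIs per embryo, the median was 26.6% and counting gave 25.6%. Zbed3 had 41.1% against 28.8% (6 groups) and Tle6 41.0% against 27.7% (7 groups). In Sox2 early ICMs the variation of Ooep was 13.9% in KO, where the embryos ran from 42.2 to 61.4 CPM, and 70.0% in Ctrl, where they ran from 27.0 to 167 CPM.

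**Figure D4:**
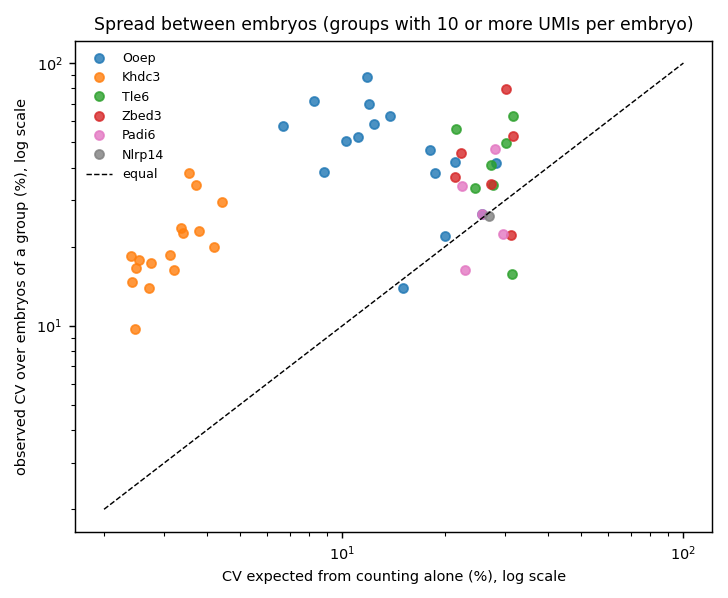
Observed coefficient of variation between embryos of a group (y axis, percent, log axis) against that expected from counting error (x axis, percent, log axis), 1 point per member and group with at least 10 UMIs per embryo. Points of Ooep and Khdc3 lie mostly above the line of equality, with medians of 48.7% and 18.5% against 13.1% and 3.16%.

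Over the means of the 12 Ctrl and KO groups, on the log2(CPM + 1) scale, the falling members other than Zar1 had like patterns and so did some of the rising ones. Pearson's r was 0.94 for Padi6 and Npm2, 0.90 for Padi6 and Nlrp14, and 0.89 for Nlrp5 and Nlrp14. For Zar1 r was 0.41 with Padi6, 0.46 with Npm2, 0.64 with Nlrp5 and 0.70 with Nlrp14. Among rising members r was 0.80 for Tle6 and Zbed3, 0.79 for Khdc3 and Nlrp4f, and 0.78 for Khdc3 and Tle6. It was −0.86 for Khdc3 and Padi6. These points share libraries and stages, and r is a description. Within groups, over single embryos, r between members lay between −0.28 and 0.23. The genes whose pattern over the 12 groups was most like the mean pattern of the members were Fgd2 (r = 0.91), Coq10b (0.89), Kctd3 (0.89), Morc3 (0.88) and Kpna2 (0.88). That mean joins members that moved in opposite directions. These r values are the highest found among all genes tested over 12 points, so high values were to be expected.

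Related genes were taken from lists of oocyte genes, paralogs and maternal factors. Among other transcripts listed as oocyte-restricted, 14 were tested between morula and early ICM. In Oct4 Ctrl embryos 10 fell and 1 rose, with a median log2 fold change of −2.70. In Sox2 Ctrl embryos 11 fell and 1 rose, with a median of −2.47. Over all genes the medians were −0.00 and 0.03. Oosp1, an oocyte-secreted protein, averaged 30.0 CPM in Oct4 Ctrl morulae and 1.31 in early ICMs, against 2.91 and 0.400 CPM in the Sox2 Ctrl series. Zp3, a zona pellucida protein, averaged 12.2 and 2.68 CPM in Oct4 Ctrl and 7.95 and 1.73 CPM in Sox2 Ctrl embryos. Of the other Nlrp genes of oocytes only 2 passed the detection filter in the Ctrl and KO embryos. Nlrp4c rose from 10.2 to 37.8 CPM in Oct4 Ctrl and from 6.49 to 30.7 CPM in Sox2 Ctrl embryos between morula and early ICM, and differed by −0.11 (SE 0.39, adjusted p = 0.873) in Oct4 KO late ICMs. The other, Nlrp9a, fell between morula and early ICM in Sox2 Ctrl (9 to 1 UMIs, log2 fold change −2.14, SE 0.78, adjusted p = 0.0249) and Sox2 KO embryos (4 to 0 UMIs, adjusted p = 0.0492, with an exact 95% upper limit of 181% for the ratio), and in Oct4 Ctrl embryos 3 UMIs of Nlrp9a stood against 0 (adjusted p = 0.0884).

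In Oct4 KO late ICMs 0 of 2 other Nlrp genes changed. Of 4 KH-family relatives of Ooep and Khdc3, 1 fell and 0 rose, and it was Khdc1b (log2 fold change −2.42, SE 0.61, adjusted p = 0.00105). Of 11 other paralogs of members 5 fell and 0 rose, and Padi4, a peptidylarginine deiminase like Padi6, changed most (−2.78). Of 14 other transcripts listed as oocyte-restricted 1 fell and 3 rose. The one that fell was Tcl1, a coactivator of Akt, at 0.316 against 14.6 CPM (−4.91, SE 0.74, adjusted p = 4.86e-08). Tcl1 averaged 37.3 CPM in Sox2 Ctrl late ICMs, so the name of the list does not describe it in these embryos. Of 14 maternal-effect chromatin factors 4 fell and 0 rose, led by Zfp57, which maintains imprints, at 0.421 against 27.8 CPM (−5.81, SE 0.56, adjusted p = 6.32e-15). Of 13 maternal mRNA decay factors 1 fell and 0 rose, the decapping enzyme Dcp2 (−2.40, SE 0.24, adjusted p = 3.76e-14). In Oct4 KO early ICMs 10.9% of all genes were called. Of the 14 transcripts listed as oocyte-restricted, 2 rose there, H1foo (2.36, 2.05 against 0.304 CPM) and Plat (2.46, 14.1 against 2.48 CPM), and 1 fell, Tcl1 (−3.78). There 3 of 14 chromatin factors fell and 0 rose, led by Zfp57 (−3.64), and 1 of 13 decay factors fell and 0 rose, Dcp2 (−2.29). Of the relatives 1 of 4 fell, Khdc1b (−2.23), and of the other paralogs 1 of 11, Tle1 (−1.11), with 0 that rose in either. In Sox2 KO early ICMs, with 3.27% of all genes called, Tcl1 fell by 1.24 on the log2 scale and the Groucho-family gene Tle4 rose by 1.43. In Sox2 KO late ICMs 2 transcripts of the oocyte list fell, led by Tcl1 (4.19 against 37.3 CPM, −3.09, SE 0.45, adjusted p = 1.04e-07). There 2 chromatin factors fell, led by Uhrf1 (−1.09), and Dcp2 fell by 1.08 on the log2 scale. Of the genes named for their mean CPM in Ctrl morulae, most were without a call in Oct4 KO late ICMs. Dppa5a, Khdc1a, Npm1, Tle4, Trim28, Cnot8 and Ythdf2 had none, and Dppa3, which protects maternal DNA methylation, fell from 1789 to 879 CPM on average (−1.01, SE 0.17, adjusted p = 4.82e-07). The counts in late ICMs can be read against the 18.1% (Oct4) and 6.95% (Sox2) of all genes called there.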

How the data were processed

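Single-embryo RNA-seq libraries tagged with unique molecular identifiers at mRNA 3′ ends were made by the authors. Per the labels and the study's methods, reads were handled with UMI-tools and Cutadapt, aligned to mm10 with TopHat2 and assigned to GENCODE vM23 genes with featureCounts, and UMIs were corrected with TRUmiCount. Versions and the strand setting of the counting are not given in the sources used here. The deposited UMI counts per gene are whole numbers with no normalization, and the deposited rlog values are on a log2 scale, made by the authors with DESeq2 (rlog shrinks low counts towards the gene's mean). The rlog values entered 1 alternative only.

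Counts were analysed in R 4.3.3 with edgeR 4.0.16 (TMM factors 0.8931 to 1.098, quasi-likelihood F-test, 1 mean per group). Genes with at least 1 UMI in a share of 0.5 of the embryos from any single stage entered the tests. Comparisons of Ctrl and KO used 96 embryos in 12 groups and 14053 genes, and those with MWT embryos used all embryos in 16 groups and 13923 genes. A call needed a Benjamini-Hochberg adjusted p below 0.05 over all genes together with a log2 fold change of 1 or more in either direction, and interactions needed the adjusted p alone. SE is the absolute log2 fold change over the square root of F. CPM is UMIs per 1000000 of the TMM-scaled total, and levels of the members were not compared with each other, since 3′-end counts per gene depend on how each 3′ end is captured and annotated. Only the choice of named genes in the lists of related genes used CPM across genes. Exact 95% intervals of UMI ratios cover counting error only.

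Groups came from the sample titles. Each sample is a separate embryo, and nothing in the labels says which embryos shared a litter. Alternatives were DESeq2 1.42.0, its size factors in edgeR, no TMM, no detection filter, no minimum fold change, counts thinned to 525755 UMIs per embryo, limma 3.58.1 on the rlog values, the embryo number as a block, the label set as a block, MWT embryos in the fit, and leaving out single embryos. All members were named throughout. Of each list of related genes, those with the highest level in Ctrl morulae and the largest called KO change were named, along with the 5 genes most like the members' mean pattern. H1foo, Plat and Nlrp9a fall outside this rule and were named after their values were seen. The members and lists were chosen with earlier results of these data known.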

Additional observations from a re-analysis of the deposited data

Results flagged for a closer look

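In 79 combinations of a member and a group with a mean of at least 5 CPM, Dixon's test at the 95% level set 1 embryo apart in 6. Chance gives about 1 in 20, so several of these 6 can be expected by chance. Ooep reached 173 CPM in Oct4 Ctrl early ICM 9, with the next embryo at 87.8. Tle6 reached 69.6 CPM in Oct4 MWT late ICM 4 (next 29.3) and 29.1 CPM in a Sox2 KO late ICM of label set 1 (next 15.03). Zbed3 reached 29.7 CPM in Oct4 MWT morula 3 (next 9.81) and 15.3 CPM in Oct4 Ctrl early ICM 4 (next 7.85). Nlrp4f reached 13.6 CPM in Oct4 MWT early ICM 1, and the next embryo had 4.48. All 6 embryos were high rather than low in their group. The test assumes a normal spread, while CPM is bounded below and can be skewed upwards, so this direction is not read as a trait of the embryos.

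Interaction terms of the edgeR fit set 3 differences between KO effects apart. The Oct4 KO effect on Zbed3 was lower in late than in early ICMs by −2.04 on the log2 scale (SE 0.57, adjusted p = 0.021). In late ICMs the Oct4 KO effect was lower than the Sox2 KO effect by −1.18 for Khdc3 (SE 0.22, adjusted p = 9.45e-05) and by −3.79 for Nlrp4f (SE 1.18, adjusted p = 0.0283).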

How the results depend on the processing

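No called value of a member changed sign under any alternative run. Values without a call did in places, such as Ooep in Oct4 KO late ICMs (−0.39 to 0.06 on leaving out single embryos), and Nlrp14 (−0.92 to 0.95) and Npm2 (−0.30 to 0.50) in Oct4 KO early ICMs. Counts of members called moved as follows. In Oct4 KO early ICMs the 1 call became 2 with no minimum fold change and 0 with no detection filter, with thinned counts and with limma on rlog values, and leaving out single embryos gave 0 to 2. In Oct4 KO late ICMs leaving out single embryos (chosen after seeing the data) gave 3 to 6 calls against 4, and in Sox2 KO late ICMs it gave 1 throughout. The 0 rises of Oct4 KO embryos from early to late ICM became 3 with no minimum fold change, 1 with DESeq2 size factors and 1 with DESeq2. The 1 fall of Sox2 KO embryos at that step, Nlrp5, became 0 with no filter, with thinned counts, with DESeq2 (where its adjusted p was not given) and with limma. The 1 call between Sox2 MWT and Ctrl early ICMs became 0 with no filter, with thinned counts, with limma and with the replicate block. In limma on rlog values, which are shrunken, the step from morula to early ICM gave 1 rise in Oct4 Ctrl, 1 fall in Oct4 KO, 2 falls and 2 rises in Sox2 Ctrl, and 2 falls and 0 rises in Sox2 KO embryos. Falls of Oct4 MWT embryos from early to late ICM numbered 0 to 1 on leaving out single early ICMs, through Zar1 without embryo 1 or 3. The cause of these changes was not tested.

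Over single members, 186 of 194 values kept their side of the threshold with thinned counts, 193 of 200 with DESeq2, 195 of 200 with no filter, 182 of 200 with limma, 199 of 200 without TMM and 140 of 140 with MWT embryos in the fit. Nlrp4f in Oct4 KO early ICMs had adjusted p-values of 0.0737 with no filter, 0.16 thinned, 0.0535 in DESeq2 and 0.0578 in limma. Nlrp5 in Oct4 KO late ICMs had 0.0795, 0.145, 0.0589 and 0.0971 in the same order. Tle6 in Oct4 KO late ICMs passed with the label set as a block (−1.004, adjusted p = 0.011), without TMM (−1.05, adjusted p = 0.00768) and in 8 of 16 fits that left out an embryo.

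Embryos with the same number were not paired, since in no comparison with at least 3 pairs did every pair's deviations correlate above 0.1. The highest was Sox2 KO late ICMs, with 3 of 4 pairs above 0.1 and a median r of 0.222. The replicate block changed 2 of 120 values, Tle6 in Sox2 MWT early ICMs (−1.08, adjusted p = 0.0512) and Nlrp4f between morula and early ICM in Sox2 KO (1.47, adjusted p = 0.0509). Some comparisons shared fewer than 2 numbers and had no such fit. Zar1, Npm2 and, in ICMs, Nlrp5 and Nlrp14 rest on a few UMIs per group, which limits what could be detected.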
